A study of Homo sapiens with 9 samples.

Results

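The transcripts of 5 human genes that encode hydrolases of the histidine triad family, HINT1, HINT2, HINT3, FHIT and APTX, were followed in HT29 cells. On the array used they were read by 13 probe sets, each a group of short oligonucleotides summarised to 1 value, out of 54613 probe sets that are not array controls. Every probe set annotated to exactly 1 of the 5 symbols was taken, which gave 3 for HINT3, 5 for HINT1, 1 for HINT2, 1 for FHIT and 3 for APTX. The family was chosen by the intensities of HINT3 in these same arrays, where it had a large difference that rested on variable Control arrays. The levels of HINT3 are therefore given as a description without a p-value, and only the other 4 genes were tested.

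HT29 is an epithelial cell line established from a human colon cancer. ICC cells received instant caffeinated coffee at 7 µg/mL, and CA cells received caffeic acid, 1 of the phenolic acids of coffee, at 1.68 µg/mL, both for 24 h. Both doses were stated to be non-cytotoxic. Control cells were not treated. Each group had 3 arrays, numbered replicates 1 to 3, which made 9 arrays, and all came from this 1 cell line. Separate cultures are not stated for the replicates, so a p-value here reflects array-to-array spread alone, which may be technical.

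Histidine triad proteins carry a conserved run of histidines in the catalytic site and act on nucleotides linked through a phosphate to another group. The HINT branch removes amino groups or acyl groups from adenosine monophosphate. FHIT cleaves diadenosine polyphosphates, and its gene spans a fragile site that is often broken or lost in carcinomas. APTX (aprataxin) is nuclear and takes off the adenosine monophosphate that an aborted ligation leaves on a broken DNA end.

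The arrays were alike in overall brightness, with medians between 5.45 and 5.54 on the log2 intensity scale, and pairwise correlations across 19775 genes ranged from 0.995 to 0.998. Epithelial identity was visible in EPCAM, CDH1, KRT8, KRT18, KRT20, VIL1 and LGALS4, each brighter than at least 83.2% of genes, while CDX2 and CDH17 lay below the median gene. Of the markers of other cells, 0 of 3 endothelial, 1 of 4 fibroblast and 2 of 4 leukocyte genes lay above the median gene. The last were LYZ, a lysozyme, at 13.1 log2 and CD14 at 7.14 log2, while PTPRC, which defines leukocytes, was at 3.65 log2. With 1 probe set per gene, 0 genes reached a limma adjusted p under 0.05 in each comparison, that is 0% of 19775, while 1529 genes in ICC against Control, 883 in CA against Control and 532 in ICC against CA had an unadjusted p under 0.05.

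HINT3, a phosphoramidase of the HINT branch, was brighter in all 6 treated arrays than in all 3 Control arrays on each of its 3 probe sets. On the brightest of them, 228697_at, ICC arrays 1 to 3 read 8.81, 8.80 and 8.66 log2. CA arrays read 8.95, 8.98 and 8.68 log2. Control arrays read 7.99, 7.82 and 6.65 log2. The treated arrays lay close together, and the third Control array stood 1.17 log2 below the nearer of the other Control arrays. The ICC mean was 8.75 ± 0.082 log2, the CA mean 8.87 ± 0.17 and the Control mean 7.49 ± 0.73 (SD, n = 3 each). The difference from Control was +1.27 ± 0.28 log2 in ICC (SE, 2.41-fold) and +1.38 ± 0.28 log2 in CA (SE, 2.61-fold). In RNA from whole cultures, more transcript per cell and more cells with the transcript cannot be told apart.

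The second HINT3 probe set, 226537_at, had the same shape. Its ICC arrays read 7.12, 7.02 and 6.73 log2, its CA arrays 7.19, 7.00 and 6.73 log2 and its Control arrays 6.34, 6.39 and 5.34 log2. Again the third Control array was far below the other Control arrays, by 1.005 log2. The difference from Control was +0.93 ± 0.25 log2 in ICC (1.91-fold) and +0.95 ± 0.25 log2 in CA (1.93-fold).

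The third HINT3 probe set, 226533_at, did not share the wide control spread. It was the dimmest of the 3, with 53.7% of all probe sets dimmer. Its Control mean of 5.15 log2 lay below the lowest array median of 5.45 log2. Whether its low brightness bears on the narrow Control spread was not tested. ICC arrays read 6.12, 6.0 and 5.81 log2, CA arrays 5.99, 6.51 and 5.71 log2, and Control arrays 5.21, 5.24 and 5.0 log2. Here the Control arrays were within 0.24 log2 of each other, with an SD of 0.13, and the widest group was CA, with an SD of 0.41. The difference was +0.83 ± 0.17 log2 in ICC (1.78-fold) and +0.92 ± 0.17 log2 in CA (1.90-fold), and the gap between the lowest treated and the highest Control array was 0.57 log2 for ICC and 0.48 log2 for CA.

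**Figure D1:**
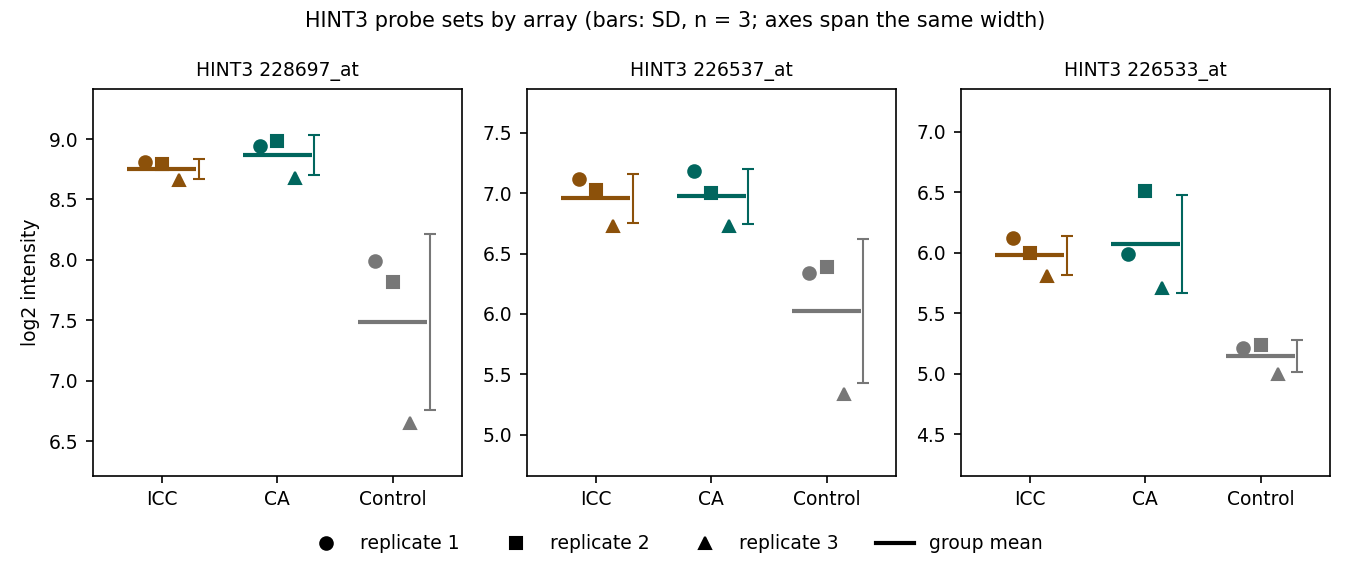
Log2 intensity of each array (vertical axis) for the 3 HINT3 probe sets in ICC, CA and Control, with the group mean as a line and the SD of 3 arrays as a bar. The third Control array lies far below the others on 228697_at and 226537_at and close to them on 226533_at, where the Control SD is 0.13, while the treated arrays lie above every Control array on all 3 probe sets.

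The spread of the Control arrays thus differed between probe sets of the same gene. Of the 54613 probe sets, 85 had a larger Control SD than 228697_at (0.156%) and 205 a larger one than 226537_at (0.375%), but 35.8% had a larger one than 226533_at. In the ICC arrays 60.3% of probe sets had a larger SD than 228697_at. Across all probe sets the median Control SD was 0.10 log2.

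As a description of its size, no probe set differed more from Control than 228697_at, in ICC or in CA. In CA, 2 probe sets differed more than 226537_at and 3 differed more than 226533_at, so that the 3 HINT3 probe sets were among the 4 with the largest absolute difference. The fourth, in second place, was 1 of SIAE, a sialic acid esterase, at +1.28 log2. In ICC, 4 probe sets differed more than 226537_at and 8 more than 226533_at. ICC and CA share the Control arrays, so the ranks are not independent of each other. The groups did not overlap in the upward direction in 7.08% of all probe sets for ICC and 3.79% for CA. This was the case in 3 of 3 HINT3 probe sets in both, a count that the choice of the gene favours.

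**Figure D2:**
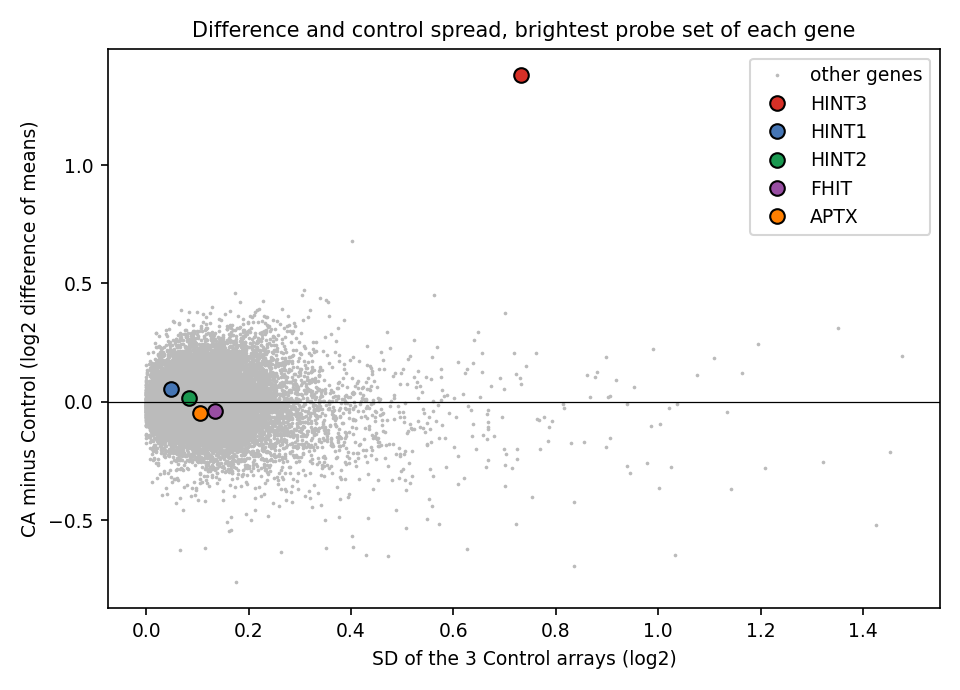
Each point is 1 of 19775 genes, by its brightest probe set, with the SD of the 3 Control arrays on the horizontal axis and the mean of CA minus the mean of Control on the vertical axis, both in log2. HINT3, at an SD of 0.73 and a difference of +1.38, stands above all other genes, and HINT1, HINT2, FHIT and APTX lie between -0.048 and +0.053.

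Same-numbered arrays gave a positive HINT3 difference in each of 3 pairs, on each probe set and for both treatments. For 228697_at the ICC array was higher by 0.82, 0.98 and 2.01 log2 in pairs 1, 2 and 3, and the CA array by 0.95, 1.16 and 2.03 log2. For 226533_at the pairs gave 0.91, 0.76 and 0.81 log2 in ICC and 0.78, 1.28 and 0.71 log2 in CA. For 226537_at they gave 0.78, 0.63 and 1.39 log2 in ICC and 0.85, 0.61 and 1.39 log2 in CA. The third pair was therefore the largest on 228697_at and 226537_at and not on 226533_at. Replicate 3 was the lowest HINT3 array of its group in ICC, in CA and in Control, on 3 of 3 probe sets each, where over all probe sets replicate 3 was lowest in 37.6% for ICC, 29.3% for CA and 33.1% for Control.

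Leaving out Control replicate 3 lowered the HINT3 difference more than leaving out any other array did on 228697_at and 226537_at. Without it 228697_at stood at +0.85 log2 in ICC (1.80-fold) and +0.96 log2 in CA (1.95-fold). For 226537_at it was +0.59 log2 in ICC (1.51-fold) and +0.61 log2 in CA (1.52-fold), and for 226533_at +0.75 log2 in ICC and +0.85 log2 in CA. Without that array 9 probe sets had a larger absolute difference than 228697_at in ICC and 3 in CA, 103 and 58 a larger one than 226537_at, and 23 and 14 a larger one than 226533_at. With replicate 3 left out of every group, a setting added after the data were seen, the 3 probe sets lay between +0.71 and +0.90 log2 in ICC and between +0.73 and +1.06 log2 in CA. For 226533_at the lowest value in CA, +0.70 log2, came without CA replicate 2. With any 1 array left out the 3 probe sets ranged from +0.59 to +1.52 log2 in ICC and from +0.61 to +1.64 log2 in CA.

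**Figure D3:**
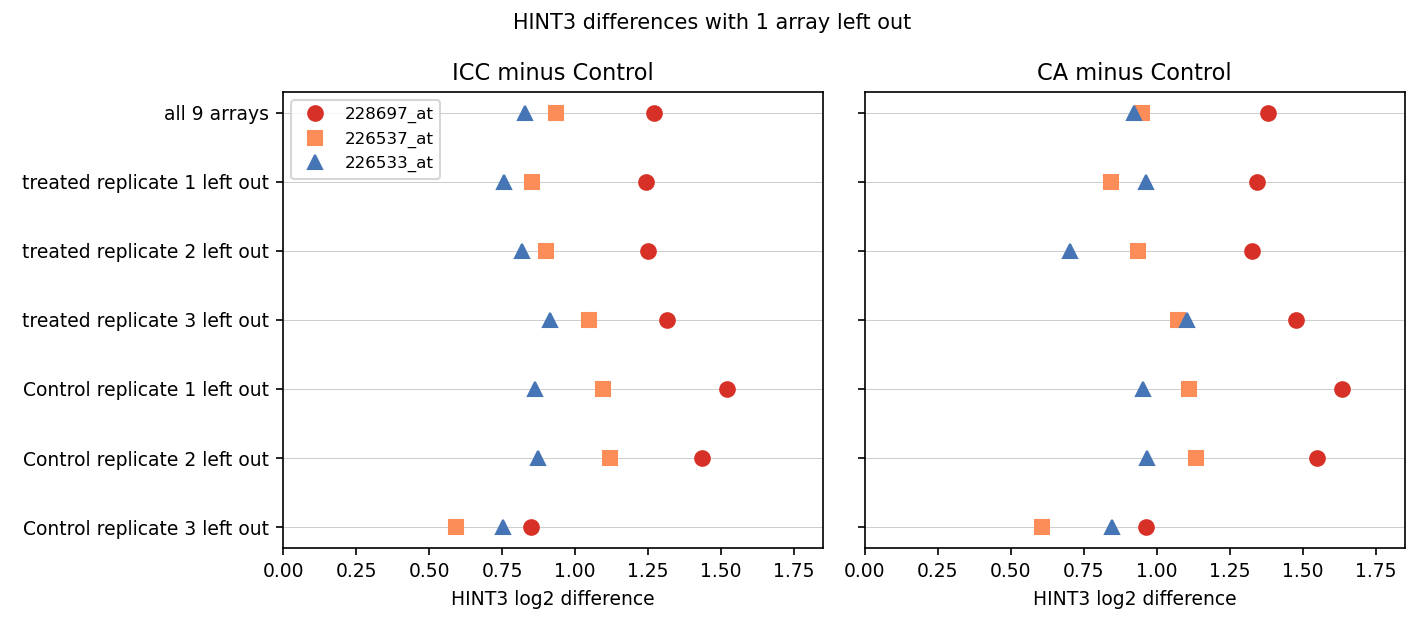
The log2 difference of the 3 HINT3 probe sets from Control (horizontal axis), for ICC on the left and CA on the right, with all arrays and with 1 array of the compared groups left out (rows). Without Control replicate 3 the probe sets come to lie between 0.59 and 0.85 in ICC and between 0.61 and 0.96 in CA, and every point stays above 0.

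ICC and CA, at doses that differ (7 and 1.68 µg/mL), gave HINT3 levels that overlapped on each probe set. ICC minus CA was -0.11 log2 for 228697_at, -0.016 for 226537_at and -0.093 for 226533_at, with SEs of 0.28, 0.25 and 0.17. These SEs come from the fit of all 3 groups, so the spread of the Control arrays enters them. On 228697_at the SD was 0.082 in ICC and 0.17 in CA, against 0.73 in Control. ICC minus CA in pairs 1, 2 and 3 was -0.14, -0.19 and -0.016 log2 on that probe set. The ICC array was the higher in 1 of 3 pairs on 226537_at and in 2 of 3 on 226533_at. The order of the group means on all 3 probe sets was CA, ICC and Control, of which CA and ICC lay within the spread of their arrays. Without CA replicate 2 the difference of 226533_at turned to +0.13 log2, and without ICC replicate 3 that of 226537_at turned to +0.098 log2.

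HINT1, the best known phosphoramidase of the HINT branch and first described as an inhibitor of protein kinase C, was read by 4 bright probe sets and 1 of moderate brightness. On 1555961_a_at, the brightest, ICC arrays read 12.60, 12.54 and 12.54 log2, CA arrays 12.58, 12.53 and 12.51 log2 and Control arrays 12.44, 12.54 and 12.49 log2. The groups overlapped in CA, and in ICC the lowest treated array equalled the highest Control array. The difference was +0.073 ± 0.064 log2 in ICC (SE, limma adjusted p 0.771) and +0.053 ± 0.064 in CA (adjusted p 0.994).

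HINT1 probe sets 200093_s_at and 207721_x_at were the only tested probe sets of the family with groups that did not overlap, both in ICC against Control. On 200093_s_at ICC arrays read 12.17, 11.98 and 11.94 log2 and Control arrays 11.85, 11.94 and 11.84 log2, a gap of 0.0016 log2. On 207721_x_at ICC arrays read 12.49, 12.37 and 12.36 log2 and Control arrays 12.29, 12.32 and 12.23 log2. Their differences were +0.16 ± 0.080 and +0.13 ± 0.073 log2 (SE, limma adjusted p 0.635 and 0.659), in 3 of 3 pairs each. Non-overlapping groups were found in 2 of 10 tested probe sets of the family, against 11.8% of all probe sets in ICC. In CA they stood at +0.084 ± 0.080 and +0.041 ± 0.073 log2, and 0 of 10 had groups that did not overlap, against 7.85% of all probe sets.

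The other bright HINT1 probe set, 208826_x_at, differed from Control by +0.031 log2 in ICC and +0.022 log2 in CA. The names ending in _x_at and _s_at mark probe sets whose oligonucleotides can match more than 1 transcript, which applies to 3 of the bright HINT1 probe sets. It also applies to 224415_s_at of HINT2 and 222658_s_at of APTX. The fifth, 1555960_at, read 6.82, 6.90 and 7.19 log2 in ICC, 6.75, 7.04 and 7.18 log2 in CA and 6.78, 6.97 and 7.23 log2 in Control. It followed the replicate number in every group, highest in replicate 3 and lowest in replicate 1, and its difference from Control was -0.021 log2 in ICC and -0.0031 log2 in CA.

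HINT2, a mitochondrial member of the HINT branch, was read by 224415_s_at. ICC arrays read 10.22, 10.02 and 10.02 log2, CA arrays 10.05, 9.97 and 9.98 log2 and Control arrays 10.07, 9.90 and 9.99 log2. The groups overlapped, with 1 ICC array above the rest. The difference was +0.097 ± 0.079 log2 in ICC (SE, 95% interval -0.079 to 0.27, limma adjusted p 0.754) and +0.014 ± 0.079 log2 in CA (-0.16 to 0.19, adjusted p 0.999).

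FHIT, the diadenosine triphosphate hydrolase, was read by 206492_at, which was dim, with 43.7% of all probe sets dimmer. ICC arrays read 5.07, 5.08 and 5.07 log2, CA arrays 5.07, 5.07 and 5.08 log2 and Control arrays 5.03, 5.05 and 5.27 log2. The 6 treated arrays were almost identical and lay between the lower and the highest Control arrays, and 4 of the 9 arrays had exactly the same deposited value. As few distinct values were found in 8.61% of all probe sets. The difference was -0.041 ± 0.076 log2 in ICC (95% interval -0.21 to 0.13, limma adjusted p 0.908) and -0.040 ± 0.076 log2 in CA (-0.21 to 0.13, adjusted p 0.999). Both rested on Control replicate 3, without which they were +0.037 and +0.038 log2.

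APTX, the aprataxin gene, was read by 3 probe sets, all with means below Control in both treatments. On 222658_s_at ICC arrays read 8.34, 8.23 and 8.09 log2, CA arrays 8.26, 8.11 and 8.11 log2 and Control arrays 8.39, 8.27 and 8.23 log2. The groups overlapped by 0.028 log2 in CA and by 0.11 log2 in ICC. The difference was -0.079 ± 0.086 log2 in ICC (SE, limma adjusted p 0.823) and -0.14 ± 0.086 log2 in CA (adjusted p 0.986). The treated array was lower in 3 of 3 pairs in ICC and in CA alike. On the brighter 218527_at ICC arrays read 9.25, 9.11 and 9.08 log2, CA arrays 9.25, 9.16 and 9.02 log2 and Control arrays 9.31, 9.16 and 9.11 log2, which differed from Control by -0.046 log2 in ICC and -0.048 log2 in CA. These turned to +0.013 log2 in ICC without Control replicate 1 and to +0.012 log2 in CA without CA replicate 3. The third, 243132_at, lay between 5.23 and 5.40 log2 in all 9 arrays and differed by -0.039 log2 in ICC and -0.040 log2 in CA.

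**Figure D4:**
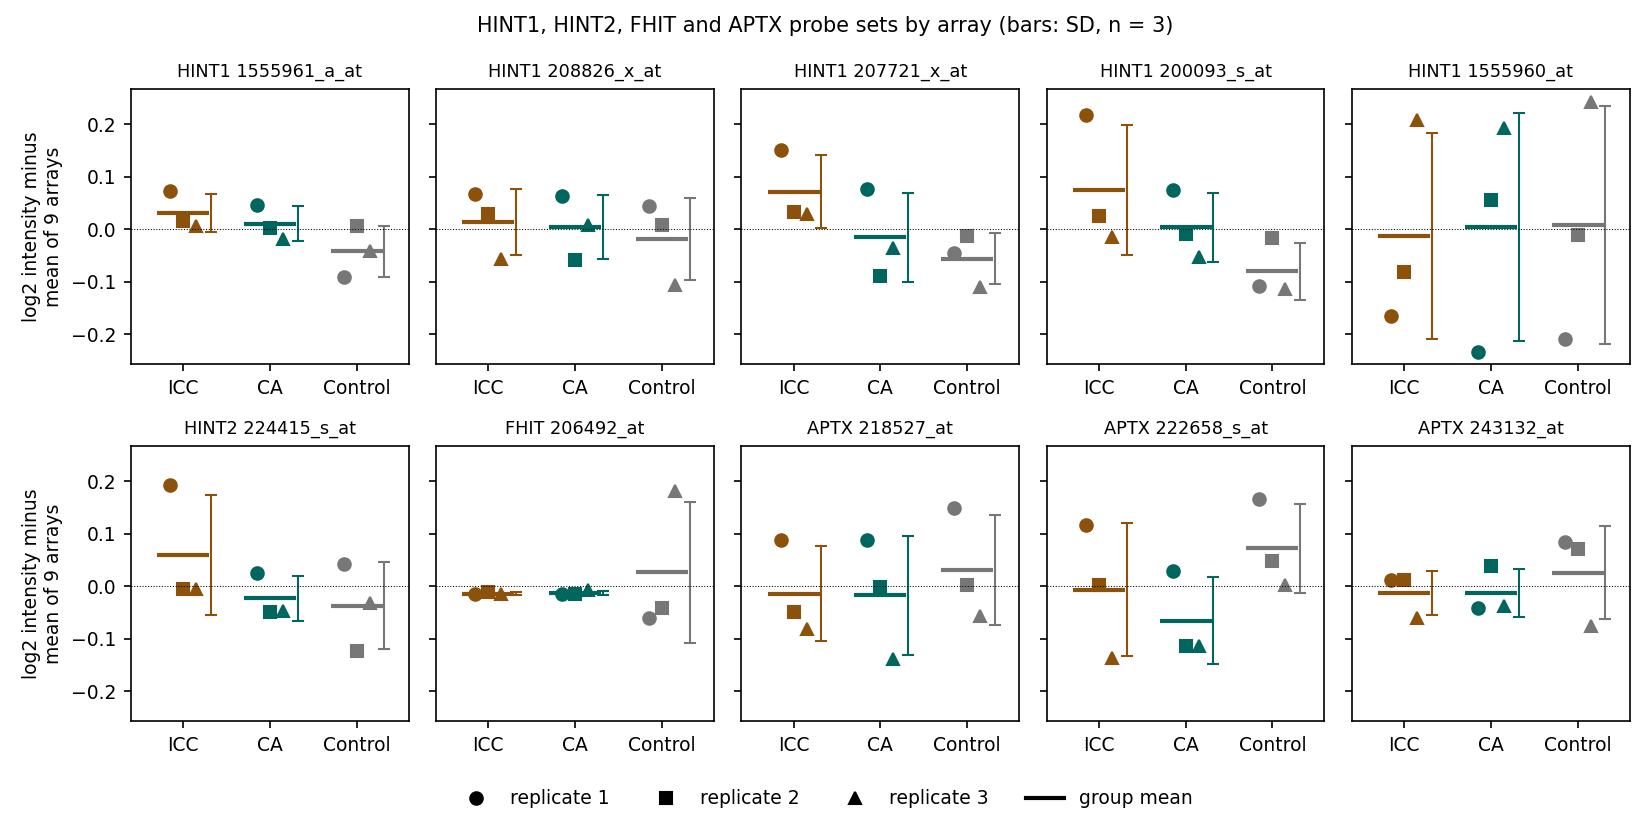
Log2 intensity of each array minus the mean of the 9 arrays (vertical axis, the same for all panels) for the 10 probe sets of HINT1, HINT2, FHIT and APTX in ICC, CA and Control, with group means as lines and the SD of 3 arrays as bars. The groups overlap on all panels for CA and on 8 of 10 for ICC, the exceptions being HINT1 207721_x_at and 200093_s_at.

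Of the 10 probe sets of HINT1, HINT2, FHIT and APTX, 0 passed limma's test over all probe sets at an adjusted p under 0.05 in any of the 3 comparisons, where 0% of 54613 passed, and 0 had an unadjusted p under 0.05, against 8.23% of all probe sets in ICC, 4.68% in CA and 2.65% in ICC against CA. Their median difference was +0.0048 log2 in ICC, where the median of all probe sets was +0.014, and +0.0054 log2 in CA, where it was -0.0047. They ranged from -0.079 to +0.16 log2 in ICC and from -0.14 to +0.084 log2 in CA. Between ICC and CA they ranged from -0.018 to +0.087 log2. With the replicate number as a block 0 of 10 passed as well, with a lowest adjusted p of 0.417 in ICC, where 0.00366% of all probe sets passed, and of 0.642 in CA, where 0% passed.

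**Figure D5:**
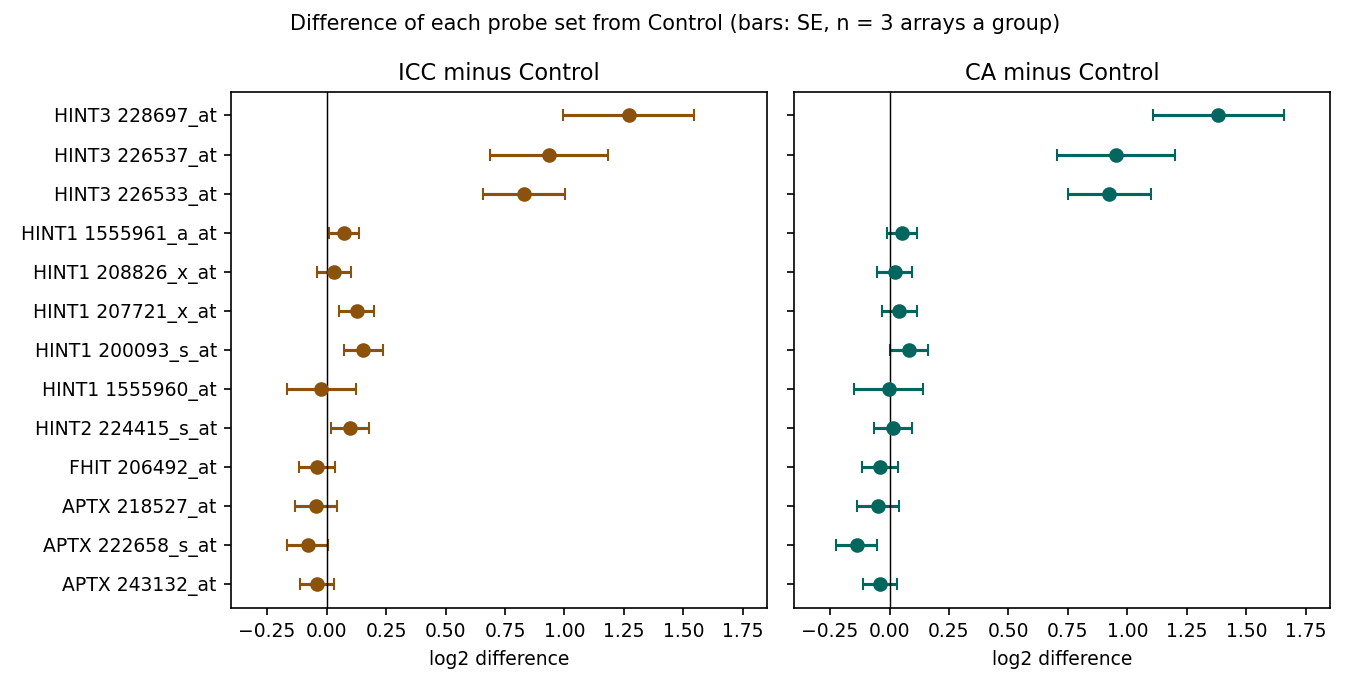
Log2 difference from Control (horizontal axis) of the 13 probe sets, for ICC on the left and CA on the right, with the SE of limma's fit as bars (n = 3 arrays in each group). The 3 HINT3 probe sets lie between +0.83 and +1.38, and the 10 others between -0.14 and +0.16.

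Genes that share a fold, a partner or a chromosome region with the family were set beside it in 6 lists, of which 32 of 35 genes were measured. None passed limma's test over all genes in any comparison, and at an unadjusted p under 0.05 there were 0 in ICC, against 7.73% of all genes, and 2 in CA, against 4.47%. The 2 were LIG4, a DNA ligase of double-strand break repair, at +0.20 ± 0.076 log2, and MACROD2, whose gene spans a fragile site as FHIT does, at +0.27 ± 0.11 log2 (SE, limma adjusted p 0.996 each).

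Other proteins with a histidine triad fold were DCPS, the scavenger enzyme of messenger RNA caps, at +0.012 log2 in ICC and +0.035 in CA, and GALT, an enzyme of galactose metabolism, at -0.066 and -0.011. The 4 genes of that list had a median of -0.042 log2 in ICC and -0.0070 in CA, where all genes had +0.028 and +0.0027. Among the 9 measured partners of aprataxin and strand break repair genes the medians were +0.0053 in ICC and +0.022 in CA, with XRCC4, the scaffold of end joining that aprataxin binds, at -0.17 ± 0.13 and -0.067 ± 0.13 log2. Among 8 enzymes of dinucleoside polyphosphates and adenosine nucleotides the medians were -0.012 in ICC and -0.028 in CA. NUDT2, which cleaves diadenosine tetraphosphate, stood at +0.13 ± 0.082 in ICC and +0.057 ± 0.082 in CA.

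The 6 genes whose products are reported to bind HINT1 had medians of +0.081 log2 in ICC and +0.037 in CA. In ICC 4 of them were above 0 and 2 below, and in CA 5 were above 0 and 1 below. The transcription factors MITF and USF2 stood at +0.20 ± 0.095 and +0.15 ± 0.077 log2 in ICC (limma adjusted p 0.652 and 0.660), and at +0.12 and +0.036 log2 in CA. Of the genes next to HINT3 on its chromosome, NCOA7, a nuclear receptor coactivator, was at -0.19 ± 0.27 log2 in ICC and -0.065 ± 0.27 in CA. TRMT11, a transfer RNA methyltransferase subunit on the other side, was at +0.11 ± 0.070 and +0.080 ± 0.070. Both neighbours differed less from Control than any HINT3 probe set did, which the choice of HINT3 for its large difference favours.

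Among 9618 named genes brighter than the median gene, those whose pattern over the 9 arrays was most like that of HINT3 228697_at were LARGE-AS1, ELK2AP, CES2, METTL27 and TMEM239, with Pearson correlations of 0.969, 0.943, 0.920, 0.919 and 0.909. These are the highest of a large number and are given as a description. Their differences were small beside that of HINT3, between +0.11 and +0.22 log2 in ICC and between +0.13 and +0.20 log2 in CA. CES2, a carboxylesterase of gut and liver, read 8.39, 8.35 and 8.34 log2 in ICC, 8.27, 8.38 and 8.30 log2 in CA and 8.26, 8.20 and 8.08 log2 in Control. The third Control array was lowest here too, which the choice by likeness to HINT3 favours. After the group means were taken out, the correlation with HINT3 was 0.945 for LARGE-AS1 and 0.539 for TMEM239.

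Other transcripts also stood low in Control replicate 3, though arrays standing apart were not confined to it. At least 1 log2 above both others of their group, CA replicate 2 stood in 72 of 54613 probe sets. Control replicate 1 did so in 62 and Control replicate 3 in 14. At least 1 log2 below, CA replicate 3 stood in 29 and ICC replicate 1 in 12. Control replicate 3 was at least 1 log2 below both other Control arrays in 46 probe sets, 2 of them of HINT3. The other 44 include probe sets of DDIT4, an inhibitor of mTOR signalling, CHAC1, a glutathione-degrading enzyme, SESN2, a stress-inducible sestrin, and HBEGF, a growth factor of the EGF family, which were named after their values were seen. DDIT4 read 11.39, 11.96 and 11.05 log2 in ICC, 11.03, 12.49 and 9.72 log2 in CA and 11.82, 11.67 and 9.19 log2 in Control. All 44 were also lowest in replicate 3 within CA, and 25 of them within ICC.

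The treated arrays of replicate 3 were set against that Control array as a description, since the 44 probe sets were chosen for its low values. In replicate 3 alone ICC was above Control in 44 of 44, with a median of +0.75 log2 and a highest value of +1.86 for DDIT4, and CA in 32 of 44, with a median of +0.069 log2. The HINT3 probe sets lay between +0.81 and +2.01 log2 in ICC and between +0.71 and +2.03 log2 in CA in that replicate. Over all arrays the 44 had a median of +0.028 log2 in ICC, with 26 above 0, and of -0.019 log2 in CA, with 20 above 0. With replicate 3 left out of every group the medians of the 44 were -0.25 log2 in ICC, with 2 above 0, and -0.078 log2 in CA, with 12 above 0. The 3 HINT3 probe sets were all above 0 in that setting. HINT3 was chosen for its difference and the 44 for low values in Control replicate 3, so the choice favours this contrast. What part the state of Control replicate 3 has in the HINT3 difference was not tested beyond these values.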

How the data were processed

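Per the labels' protocols, biotin-labelled total RNA of HT29 cells was hybridised to Affymetrix arrays. The authors deposited intensity values, which the submitters' processing notes link to RMA, and GeneSpring GX is named in the design text. No version or setting of either is given in the sources used here. The deposited table holds linear intensity, so log2 was taken of each value. Values tie exactly between arrays in 54.0% of probe sets.

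Of 54675 probe sets, 62 array controls were left out. All 54613 others were fitted with limma 3.58.1 in R 4.3.3, as a linear model of 3 groups over 9 arrays with moderated t statistics and Benjamini-Hochberg adjustment over all of them. A fit over 19775 genes used the brightest probe set of each gene with 1 symbol in the platform annotation (41091 probe sets). SEs and 95% intervals are those of the fit. An exact permutation test of 3 against 3 arrays cannot give a p under 0.1.

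Same-numbered arrays of different groups deviated together (correlation of deviations from the group means 0.327 to 0.518 in 9 of 9 pairs, others -0.436 to 0.0839), so a fit with the number as a block was added. The sources do not say what the number marks. On simulated CA against Control data with 54613 probe sets and 200 changed ones, 40% of changes of 0.5 log2 and 91% of changes of 1 log2 were recovered, with 5 false calls. Over 19775 genes 64% and 96% were recovered, with 11. The simulated noise was normal and independent between arrays and between probe sets. The shared deviation of same-numbered arrays was therefore not part of the simulation.

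All member probe sets are named. Of each related list the 3 genes with the largest moderated t were eligible, and 5 genes for likeness to HINT3. SIAE, DDIT4, CHAC1, SESN2 and HBEGF fall outside this rule. Members and lists were chosen with earlier results of these data known. Figures were drawn with matplotlib 3.10.9. The number of arrays limits the precision.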

Additional observations from a re-analysis of the deposited data

How the results depend on the processing

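Over 16 alternatives in each comparison, 0 of the 10 tested probe sets passed (lowest adjusted p 0.417 in ICC against Control, 0.642 in CA against Control and 0.915 in ICC against CA, all with the replicate block). The replicate block gave 3 called genes in CA against Control and 1 in ICC against CA, where the fit without it gave 0 in both, and 2 called probe sets in ICC against Control, and it changed no call of the 10 tested probe sets. The 3 HINT3 probe sets stayed above Control in each alternative. Other than by leaving out arrays, 228697_at lay between 1.24 and 1.29 log2 in ICC and between 1.38 and 1.41 in CA, so that Control replicate 3 moved it most. FHIT 206492_at and APTX 243132_at did not pass the filter on dim probe sets, which 11 of 13 passed. The difference of HINT1 1555960_at in CA turned to +0.028 log2 after quantile normalization was applied again and to +7.4e-04 after centring on the medians; these values lie near 0 and the cause was not tested.

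With single arrays left out, these uncalled differences crossed 0. In CA against Control HINT1 208826_x_at ranged from -0.022 to +0.054 log2, 207721_x_at from -0.0059 to +0.077, 1555960_at from -0.11 to +0.12, HINT2 from -0.029 to +0.054, FHIT from -0.083 to +0.038 and APTX 218527_at from -0.10 to +0.012. In ICC against Control 208826_x_at ranged from -0.013 to +0.066, 1555960_at from -0.13 to +0.097, FHIT from -0.084 to +0.037 and APTX 218527_at from -0.097 to +0.013.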
